A study of Mus musculus with 12 samples.

Results

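Dlx and Msx genes were compared between humeri of wild-type and Runx2-null (Runx2 -/-) mouse embryos. The 8 genes were taken by name (Dlx1, Dlx2, Dlx3, Dlx4, Dlx5, Dlx6, Msx1 and Msx2), out of 15964 genes with a named probe set, a probe set being the group of short oligonucleotides that reads 1 transcript. A probe set was included where the platform annotation gave it exactly 1 gene symbol and that symbol was one of the 8. This gave 9 probe sets of 36701, of which 8 lay on array type A and 1, a second one for Dlx2, on array type C. The humerus is the long bone of the upper forelimb, and all embryos were at stage E14.5. The mutant genotype is given as homozygous, with no tissue-restricted deletion, treatment or transgene in the labels. RNA was pooled over preparations, with roughly 75 humeri in each of the 2 wild-type pools and 60 in each of the 2 null pools. With 3 array designs (A, B and C) there were 12 arrays. Same-numbered arrays of a genotype were taken as the same pool across designs, which the labels do not state outright.

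Dlx and Msx proteins are transcription factors with a homeodomain, a DNA-binding fold that recognises short sites with a TAATT core. In skeletal cells Dlx factors act mostly as activators and Msx factors mostly as repressors, both are induced by bone morphogenetic proteins (BMPs), and members of the families can bind to the same sites. The Dlx genes lie in neighbouring pairs that share enhancers. Runx2 is the transcription factor that osteoblasts require, and it also acts as chondrocytes enlarge before bone forms.

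In the GRCm38.p6 gene table, Dlx5 (chromosome 6, 6877801 to 6882068) and Dlx6 (6863334 to 6867970) are 9.83 kb apart. Dlx3 (chromosome 11, 95120117 to 95125296) and Dlx4 (95140447 to 95146294) are 15.2 kb apart, and Dlx1 (chromosome 2, 71528113 to 71533981) and Dlx2 (71543408 to 71546754) 9.43 kb. No other protein-coding gene lies between or across the members of any of these 3 pairs. Msx1 is on chromosome 5 (37820491 to 37824585) and Msx2 on chromosome 13 (53466881 to 53472780), without a family neighbour in this set.

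All 12 arrays had been scaled to 1 common level (2% trimmed means of at most 100.1 signal units), with medians of 37.5 to 60.4. Of 11 cartilage markers read on array A, 10 passed the filter given below, with a summed signal of 16050.5 to 18628.4 on the 4 arrays. The probe set of Col2a1, the defining collagen of cartilage, was below the filter, at 5.7 to 26.4. The level of the targeted gene was not used here to check the labels. The arrays were scanned in 2 batches that equal the replicate numbers, and both genotypes are in each batch. On array A a spike-in control, CreX-3, followed the batch, at 4190 and 5764 in batch 1 against 1794 and 1979 in batch 2. On array C it followed the genotype label instead, at 17722 and 21596 in the wild-type arrays against 9161 and 10081 in the Runx2-null arrays, so genotype and this difference cannot be told apart there. On arrays A and B this control was higher in batch 1 than in batch 2 in both genotypes. On array C the wild-type replicate 2 array was instead among the higher ones and the null replicate 1 array among the lower. The scanner settings on array C followed the labels, and the control levels themselves differed between array types. An exchange of the values of these 2 arrays was not tested, and every value on array C, and every count that includes it, is given as labelled. Among the Dlx and Msx genes, only the second Dlx2 probe set rests on array C.

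Testing required a signal above an array's own 40th percentile, 20.7 to 29.6 on array A, on at least 2 of the 4 arrays. Dlx5, Msx1 and Dlx3 met this, and the other 6 probe sets did not. Dlx5 and Msx1 were over the filter on all 4 arrays. Dlx3 was over it on the 2 wild-type arrays only, so it entered the test through the genotype in which it was higher. Differences are Runx2-null minus wild type on the scale log2(signal + 7), with a pseudocount of 10 on array C, and they understate the change of dim probe sets. They were tested with limma, without a block as first planned and with the replicate number, and so the scan batch, as a block. The words rose and fell below mean an adjusted p under 0.05 with the block on arrays A and B. With 2 arrays a genotype, an exact two-sided permutation test of a single probe set cannot give a p below 0.333.

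**Figure D1:**
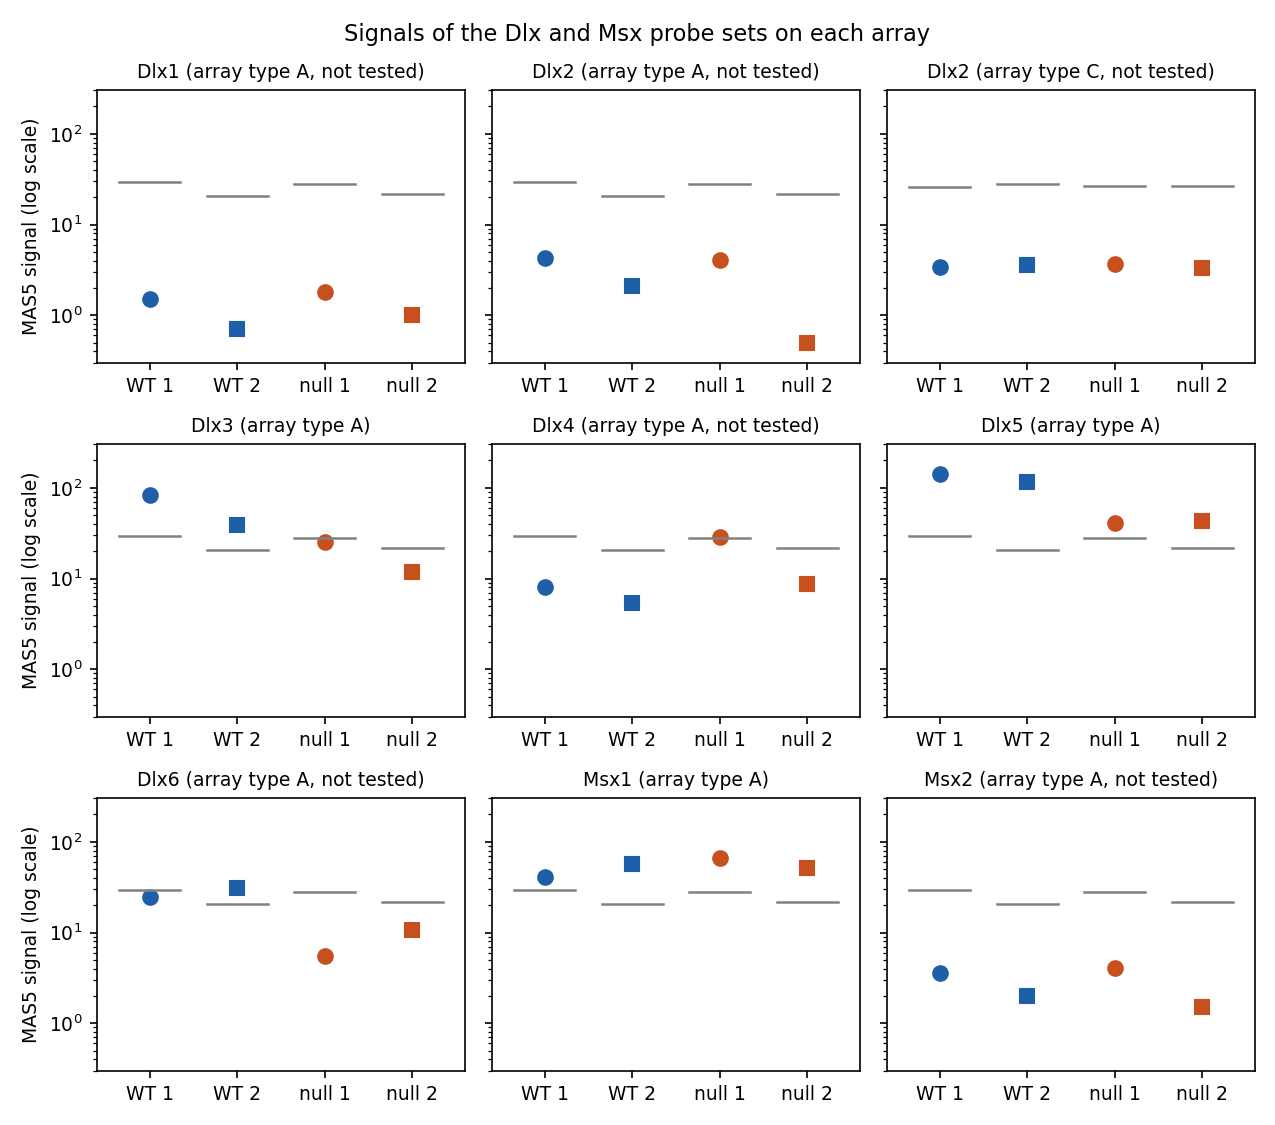
MAS5 signals (log axis) of the 9 Dlx and Msx probe sets on each array, with wild type (WT) in blue and Runx2-null in orange, circles for replicate 1 and squares for replicate 2. Grey bars are the 40th percentile of that array. Dlx5 and Msx1 lie above the bar on all 4 arrays, Dlx3 on the wild-type arrays only, and both Dlx2 probe sets, Dlx1 and Msx2 lie below it throughout.

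Dlx5, an activator of osteoblast and hypertrophic chondrocyte genes, had signals of 141.0 and 115.1 in wild type, against 40.7 and 42.5 without Runx2. The genotypes did not overlap, and the gap between them was wider than the gap between the pools of either one. The mean signal was 128 ± 18.3 (SD, n = 2) in wild type and 41.6 ± 1.27 (n = 2) in the null pools. Dlx5 fell by 1.47 on the log2 scale (SE 0.18, limma adjusted p = 0.000633 with the block and 0.162 without). The 95% interval with the block ran from -1.85 to -1.09. Within scan batches 1 and 2 the differences were -1.63 and -1.30.

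Dlx3, which acts in osteoblasts as well as in skin, hair and teeth, had signals of 83.9 and 38.9 in wild type, compared with 25.4 and 11.9 in the null pools. In both genotypes replicate 1 was above replicate 2, and the null arrays were below both wild-type arrays. Mean signals were 61.4 ± 31.8 (SD, n = 2) and 18.6 ± 9.55 (n = 2). Dlx3 fell by 1.38 on the log2 scale (SE 0.25, limma adjusted p = 0.0130 with the block and 0.554 without). The 95% interval was -1.93 to -0.84 with the block and -2.62 to -0.15 without it. Within the 2 scan batches the differences were -1.49 and -1.28. Because the filter was met only where Dlx3 was high, its call depends on the filter, and without a filter the adjusted p was 0.110 with the block.

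Msx1, a repressor that keeps mesenchymal cells undifferentiated, had signals of 41.0 and 56.4 in wild type, compared with 65.9 and 52.0 in the null pools. The genotypes overlapped, and the difference changed sign between scan batches, from 0.60 in batch 1 to -0.10 in batch 2. The log2 difference was 0.25 (SE 0.22, limma adjusted p = 0.616 with the block). Its 95% interval ran from -0.22 to 0.72 with the block and from -0.50 to 0.99 without. With the block, a fall of the size measured for Dlx5 or Dlx3 lay outside this interval.

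Of the 3 tested probe sets, 2 fell and 0 rose with the block, a count that includes Dlx3 through the filter and from which nothing is read. By the same rule 1.29% of all tested probe sets on arrays A and B were called lower (2.24% on array A) and 0.915% higher. Without a filter, only Dlx5 of the 9 probe sets was called, where 0.302% of all probe sets on arrays A and B were called lower. Without the block, limma called 0 of the 3, while 2, both lower, had an unadjusted p under 0.05, as did 1.61% of array A in that direction. In that fit 0.0256% of tested probe sets on arrays A and B were called, all of them lower. Among the 7761 tested probe sets of array A the median log2 difference was 0.02, and by size of fall Dlx5 ranked 33 and Dlx3 ranked 40. With the block the variance prior of array A had 12.8 degrees of freedom against 1 from the arrays, so these p-values rest mostly on the spread of other probe sets. With p-values adjusted within each array type, so without array C, both kept their calls with the block (adjusted p = 0.000218 for Dlx5 and 0.00551 for Dlx3). Without the block the same adjustment gave a limma adjusted p of 0.724 for Dlx5 and 0.9995 for Dlx3. The 0.162 and 0.554 given above for that fit thus depend on adjusting together with array C. Without limma's variance trend neither gene passed (adjusted p = 0.186 for Dlx5 and 0.178 for Dlx3).

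RNA came from whole humeri, so fewer cells of a type and less RNA per cell cannot be told apart. Of 7 osteoblast markers tested on arrays A and B, 6 fell and 0 rose. Among those that fell, Ibsp, Dmp1, Omd and Lrp5 were over the filter on the wild-type arrays only. They entered the test through the genotype in which they were higher, so nothing is read from this count. By the same rule 1.29% of all tested probe sets on these arrays were called lower and 0.915% higher. On array A, where all 7 markers lay, 2.24% were called lower. The summed signal of 8 osteoblast markers on array A was 13073 and 11252 in wild type, compared with 9230 and 6112 in the null pools. Most of each sum came from Col1a1 and Col1a2, whose genotypes overlapped, and Col1a1 did not pass. For hypertrophic chondrocytes 4 of 5 fell, all 5 being on array A, and the sum of 6 markers was 1359 and 1892 against 378 and 335. Mmp13, 1 of those that fell, was over the filter on the wild-type arrays only. Without the block 1 marker of each of these 2 lists passed, Ibsp (limma adjusted p = 0.00552) and Mmp13 (0.0470). In wild type the largest parts of that sum were Pth1r (482.8 and 752.8) and Mmp13 (478.5 and 825.3). The probe set of Col10a1 was below the filter, at 5.6 to 18.3, and Vegfa did not pass (0.20). No marker of either list read 0 on array A. Dlx and Msx genes are also made in limb ectoderm and neurons. The epidermal list had 6 of 14 markers over the filter on array A and a sum of 323 to 477 in wild type and 302 to 336 in the null pools. Its members differed in brightness. On array A the basal keratin Krt5 read 3.0 to 7.1, Lor 37.3 to 134.5 and Cdh1 73.9 to 137.4. Epcam read 478.5 to 597.1 on array C as labelled. Of the epidermal list 0 of 7 tested markers on arrays A and B passed, and of the neural list 0 of 4. Skeletal muscle markers, all 12 over the filter on array A, followed the replicate number as Dlx3 did, with sums of 4488 and 5355 in replicate 1 against 1283 and 978 in replicate 2, and 0 of 11 passed. Endothelial markers had sums of 893 and 688 in replicate 1 of wild type and null against 579 and 418 in replicate 2, with a median log2 difference of -0.40, and 0 of 7 passed. Of 8 tested tendon and fibrous markers 3 rose and 1 fell, with sums of 7014 and 6174 in wild type against 7658 and 7359. The part of these cell types in the Dlx5 and Dlx3 differences was not tested.

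**Figure D2:**
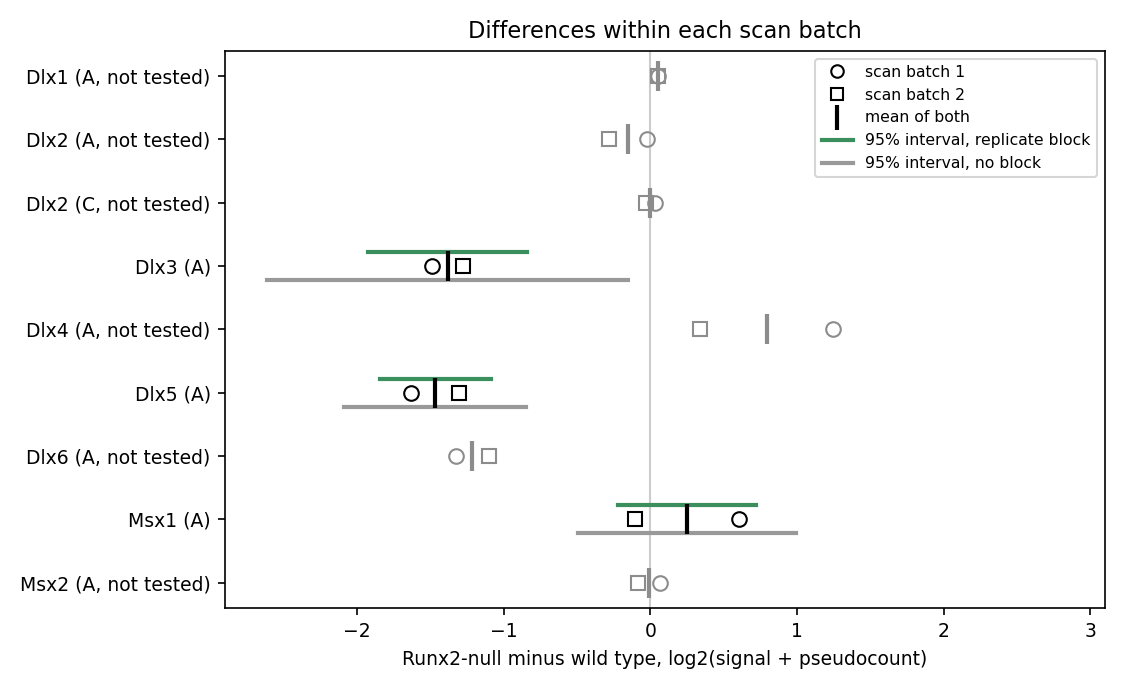
Difference of log2(signal + pseudocount), Runx2-null minus wild type, for each Dlx and Msx probe set, with the array type in brackets. Open symbols are the values within each scan batch, ticks their mean, and bars the 95% intervals of limma for the 3 tested probe sets. Dlx5, Dlx3 and the untested Dlx6 lie below 0 in both batches, and the Msx1 batches lie on either side of 0.

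Dlx6, the partner of Dlx5 in its gene pair, was over the filter on 1 array and was not tested. Its signals were 24.4 and 31.0 in wild type, compared with 5.5 and 10.7 in the null pools. The genotypes did not overlap, and the log2 difference was -1.22 on average and -1.33 and -1.10 within the scan batches. When the filter was removed, Dlx6 had an SE of 0.31 and an adjusted p = 0.171 with the block and 0.609 without, so it passed in neither fit. In that same fit Dlx5 kept an adjusted p of 0.0227 with the block while Dlx3 had 0.110. Most of these signals were near or under the 40th percentile, where MAS5 values do not show how much transcript was present.

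Dlx4, the neighbour of Dlx3, read 8.1 and 5.4 in wild type, compared with 28.8 and 8.7 in the null pools. Its null replicate 1 stood apart at 28.8, just over the filter, while null replicate 2 was close to wild type. The log2 differences were 1.25 and 0.34 within scan batches 1 and 2, and without the filter the adjusted p was 0.373 with the block. The Dlx3 and Dlx4 differences thus had opposite signs, with only that of Dlx3 tested in the planned fit.

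The remaining probe sets were below the filter on every array. Dlx1, a regulator of forebrain interneurons, read 1.5 and 0.7 in wild type, compared with 1.8 and 1.0 in the null pools. Its partner Dlx2 read 4.3 and 2.1 against 4.1 and 0.5 on array A, and 3.4 and 3.6 against 3.7 and 3.3 on array C as labelled. Msx2, a regulator of skull growth, read 3.6 and 2.0 against 4.1 and 1.5. In each of these the genotypes overlapped, and the log2 differences lay between -0.15 and 0.05. These signals give no comparison of transcript levels and do not show that the genes are silent.

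Over all 9 probe sets the genotypes overlapped in 5 and did not in 4, with the null arrays lower in 3 (Dlx3, Dlx5 and Dlx6) and higher in 1 (Dlx4). Of all probe sets on array A 24.3% did not overlap, 10.5% being lower and 13.8% higher. Among tested probe sets of array A the null arrays were lower without overlap in 11.1%.

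Promoter windows in the RefSeq-based table (GRCm38.p6, 250 bases before to 50 after a gene's start) were given for 4 of the 8 genes: Dlx1, Dlx2, Msx1 and Msx2. They were searched on both strands for TGTGGT, the core bound by RUNX proteins, and for TAATTA and TAATTG, which hold the homeodomain core. These letters occur in 16.8%, 5.29% and 8.0% of the 32851 windows of the table. The Msx1 window (chr5:37824536-37824835, minus strand) is shown because Msx1 was the tested gene with an entry, and it held none of the 3. Msx2 (chr13:53472731-53473030, minus strand) is shown for its 1 TAATTA, in capitals, and Dlx1 and Dlx2 held none. The window of Ibsp (chr5:104299037-104299336, plus strand), the bone sialoprotein gene that Dlx5 is known to activate, is shown beside them for its 1 TAATTG, which reads CAATTA on the printed strand. Of the 15 skeletal genes in the list that holds Ibsp, described below, 12 had at least 1 window. TAATTG was in 1 of these (Ibsp), TAATTA in 2 (Col10a1 and Pth1r), TGTGGT in 1 (Dmp1), and 8 held none of the 3. A match describes the letters only.
Msx1: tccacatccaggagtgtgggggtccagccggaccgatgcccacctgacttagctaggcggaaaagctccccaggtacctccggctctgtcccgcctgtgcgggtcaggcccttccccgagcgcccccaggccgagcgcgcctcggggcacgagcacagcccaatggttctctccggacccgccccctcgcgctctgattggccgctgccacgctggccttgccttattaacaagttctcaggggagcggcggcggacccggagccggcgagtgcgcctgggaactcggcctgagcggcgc
Msx2: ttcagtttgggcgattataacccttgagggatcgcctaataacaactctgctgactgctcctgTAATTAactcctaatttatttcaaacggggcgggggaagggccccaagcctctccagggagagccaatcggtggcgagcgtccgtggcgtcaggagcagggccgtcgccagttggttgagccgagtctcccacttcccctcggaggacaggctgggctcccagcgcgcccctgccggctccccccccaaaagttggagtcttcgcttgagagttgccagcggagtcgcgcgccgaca
Ibsp: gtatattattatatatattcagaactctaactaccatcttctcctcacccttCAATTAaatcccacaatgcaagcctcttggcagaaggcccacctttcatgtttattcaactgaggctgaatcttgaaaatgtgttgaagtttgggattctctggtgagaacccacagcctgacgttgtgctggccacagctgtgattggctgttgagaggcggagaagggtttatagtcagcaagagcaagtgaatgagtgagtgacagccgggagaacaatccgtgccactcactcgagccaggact

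Ibsp had signals of 1680 and 2221 in wild type, compared with 8.4 and 5.4 in the null pools. It belongs to a list of 15 skeletal genes with reported links to Dlx or Msx factors, links that were not examined in these data. The list was compiled from general knowledge, without literature at hand, and its count and median depend on that choice. Of its 14 tested members, all on arrays A and B, 8 fell, 0 rose and 6 did not pass. Ibsp, Dmp1 and Omd, among those that fell, were over the filter on the wild-type arrays only. They entered the test through the genotype in which they were higher, so nothing is read from this count. Over all tested probe sets on these arrays 1.29% were called lower and 0.915% higher. On array A, which held every tested member but Sox9, 2.24% were called lower. The median log2 difference of the list was -0.85, against 0.01 over all tested probe sets. Besides Ibsp (-7.13), Pth1r, the receptor for parathyroid hormone (-2.12), the alkaline phosphatase gene Alpl (-3.55) and the bone matrix gene Dmp1 (-3.19) fell, as did Ihh, the hedgehog ligand of cartilage (-1.20), and Cdkn1a, a cell cycle inhibitor (-1.26). The adjusted p-values with the block were at most 0.00626 for these 6. The genotypes overlapped for Cdkn1a, whose differences were -0.80 and -1.73 within the scan batches. Of those that did not pass, the collagen gene Col1a1 (-0.26, adjusted p = 0.0752) and the gap junction gene Gja1 (-0.28, adjusted p = 0.106) came closest. Without the block only Ibsp passed (adjusted p = 0.00552). Of the 15 genes 6 are also in the osteoblast list and 4 in the hypertrophic list, so these counts are not separate from the marker counts.

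The upstream and partner lists held fewer calls. Of 22 tested BMP pathway genes on arrays A and B, 2 fell, 0 rose and 20 did not pass, with a list median of -0.06. The share called lower over all tested probe sets on these arrays was 1.29%. The genes that fell were Bmp6, a ligand of hypertrophic cartilage, which went from 93.5 and 137.2 to 37.9 and 52.9 (-1.21, adjusted p = 0.00235), and the receptor-like inhibitor Bambi (-1.51, adjusted p = 0.0454), at -0.83 and -2.19 within the scan batches. The ligands Bmp2 (-0.68, adjusted p = 0.106) and Bmp5 (0.69, adjusted p = 0.130) did not pass. The BMP response genes Id1, Id2, Id3 and Id4 had differences between -0.15 and 0.16.

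Among 20 other tested limb homeobox genes on arrays A and B, outside the Hox clusters, Irx3 fell (-0.94, adjusted p = 0.0451) and 19 did not pass, with a median of 0.07 over the 20. Here too the share called lower over all tested probe sets was 1.29%. Irx3, an Iroquois factor of limb patterning, read 62.4 and 60.8 in wild type, compared with 27.3 and 30.1 in the null pools. The next lowest p-values were those of Shox2, a regulator of proximal limb cartilage (-0.39, adjusted p = 0.0594), and Six2 (0.38, adjusted p = 0.0966). Of 13 tested genes for protein partners of Dlx and Msx factors, 0 passed with the block in limma, at a median of 0.10 over the 13, against 2.21% of all tested probe sets on arrays A and B in either direction. The partner Maged1, also known as Dlxin-1, came closest, with 1035 and 1261 in wild type, compared with 1359 and 1517 in the null pools (0.33, adjusted p = 0.0520). Cebpb, a transcription factor, was next (-0.61, adjusted p = 0.195).

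**Figure D3:**
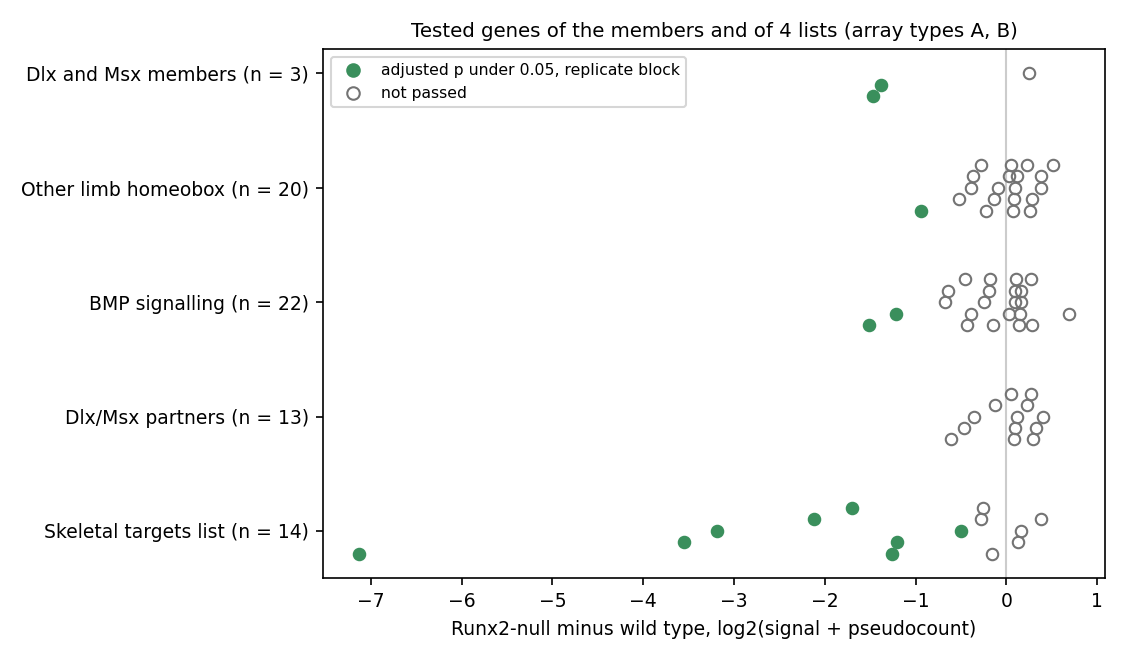
Log2 difference, Runx2-null minus wild type, of each tested gene on array types A and B, for the Dlx and Msx genes and 4 lists. Filled points had an adjusted p under 0.05 with the replicate block. Called points lie to the left of 0 in every row that has one, with 2 of 3, 1 of 20, 2 of 22, 0 of 13 and 8 of 14 from top to bottom. Over all tested probe sets on these array types 1.29% were called lower, and 2.24% on array type A. Dlx3, Ibsp, Dmp1 and Omd were over the filter on the wild-type arrays only.

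Genes of like pattern were found as the 5 probe sets of array A with the smallest Euclidean distance to a tested Dlx or Msx gene, over the 4 log2 values centred on their own mean, among 7020 candidates. With 4 arrays this is a description of these arrays. The nearest to Dlx5 were Slc7a7, an amino acid transporter (distance 0.20), Entpd5, a nucleotide-cleaving enzyme (0.27), Fam220a (0.31), Ctsk, the cathepsin K of osteoclasts (0.32), and Ambn (0.35), the last on a probe set whose suffix marks possible cross-hybridisation. Ctsk read 430 and 439.5 in wild type, compared with 152 and 189 in the null pools. The nearest to Dlx3 were the heparan sulfate proteoglycan gene Gpc1 (0.33), Gpr137b (0.35), the phospholipase gene Plcg2 (0.36), the proprotein convertase gene Pcsk6 (0.41) and Mef2c, a transcription factor of chondrocyte hypertrophy (0.42). Gpc1 read 654 and 349 in wild type, compared with 314 and 151 in the null pools, with replicate 1 above replicate 2 in both genotypes as for Dlx3. The nearest to Msx1 were Psap, Cdc26, Mfhas1, Gnrh1 and Numb, at distances of 0.04 to 0.07. None of these 5 passed, and their differences were 0.21 to 0.27. Of the Dlx5 neighbours, Entpd5 (limma adjusted p = 0.0556 with the block) and Ambn (0.0514) did not pass either. Nor did Plcg2 (0.111) among those of Dlx3. Without the block the lowest adjusted p of all these neighbours was 0.162, for Ctsk. In the null pools Slc7a7, Entpd5, Fam220a and Ambn read 5.9 to 14.1, below the filter.

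**Figure D4:**
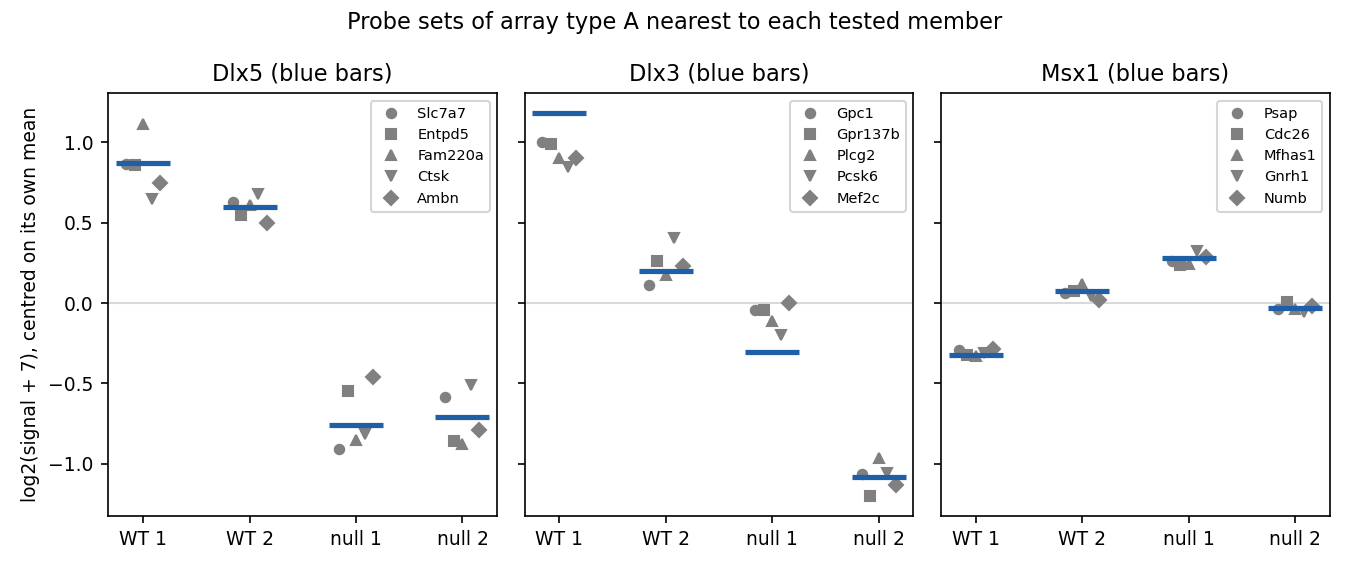
Values of log2(signal + 7) on the 4 array A hybridisations, each probe set centred on its own mean, for Dlx5, Dlx3 and Msx1 (blue bars) and the 5 nearest probe sets of each (grey symbols). Around Dlx5 the values split by genotype. Around Dlx3 replicate 1 also lies above replicate 2 in both genotypes, and around Msx1 all values lie between -0.33 and 0.32.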

How the data were processed

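Humerus RNA of 2 genotypes with 2 pools each was read on array types A, B and C. The deposited values are MAS5 signals, an intensity on a linear scale, and MAS5 is named in the submitters' processing notes, with no version. MAS5 reduces perfect-match and mismatch probes to 1 value. Other columns, of scanner settings, were used only for batches. The platform annotation named the probe sets: 29131 of 36701 had 1 symbol, 724 several and 6846 none, and 198 controls were left out. All 8 genes were matched to the RefSeq gene table.

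Values were log2(signal + pseudocount), the pseudocount being the 20th percentile of the array type, rounded (7 for A, 13 for B, 10 for C). limma 3.58.1 (lmFit, eBayes with a trend) in R 4.3.3 was fitted per array type over 23208 probe sets. Benjamini-Hochberg adjustment was over all 3 types at 0.05. The fits were also run on simulated data, with changes planted only in brighter probe sets of array A. That run does not cover dim probe sets such as that of Dlx3. Its values carried a replicate offset, so it cannot decide between the fits with and without the block. All adjusted p-values are limma's. Deviations of same-numbered arrays correlated at r = 0.763 (A), 0.594 (B) and 0.06 (C) over probe sets. The labels call the pools biological replicates but do not say what a number shares. The p-values cover the spread between these pools, moderated by that of other probe sets, and no spread beyond these pools. Each array gave 1 signal per probe set, and no precision of a single signal was used.

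The genes, lists and rules were chosen with earlier results of these data known. Each gene of a list was read from its probe set of highest mean percentile. From each list the text names members past the threshold with the block (at most 6) and 2 others of lowest p.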

Additional observations from a re-analysis of the deposited data

How the results depend on the processing

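Over all alternatives run, the differences of Dlx5, Dlx3 and Msx1 kept their sign. The filter, the variance trend, the robust fit, the adjustment, the array types used and the block leave the difference itself unchanged. Only quantile normalization, the pseudocount and leaving out a pool could have altered a sign. With the replicate block as the planned second fit, Dlx5 passed in 8 of 10 alternatives and Dlx3 in 6 of 9. Dlx5 ranged from -1.55 to -1.20 and Dlx3 from -1.55 to -0.95, and the 60th percentile filter left Dlx3 untested. The 2 calls among the Dlx and Msx genes became 1 without a filter and 1 with the 60th percentile filter. They became 0 without a variance trend and 0 without the replicate block. Leaving out 1 pool, in the fit without a block, gave -1.61 to -1.33 for Dlx5, -1.88 to -0.89 for Dlx3 (-0.89 without wild-type replicate 1) and 0.05 to 0.45 for Msx1, with 0 calls each time. With the block no residual degree of freedom remained for this. Among the Dlx and Msx genes, tested probe sets without overlap went from 2 to 4 without the filter.

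With the block, 507 probe sets were called (345 on arrays A and B, without the array type C whose controls depart from the replicate numbers). This became 110 (95) without a filter, 6 (6) without a trend and 6 (4) without the block. The fit without a block called 6 probe sets (4 on A and B), and the alternatives that follow had no block either. Quantile normalization gave 12 (6), and a pseudocount at the 10th or 40th percentile 2 (2) or 12 (6). Raising the filter to the 60th percentile gave 11 (5), and dropping the trend 2 (2). Adjustment within array types gave 99 (4), so nearly all of these 99 calls lay on array C as labelled, and A and B kept their 4. Leaving out 1 pool gave 5 to 23 on all types and 5 to 23 on A and B. The median of the BMP list went from -0.06 to -0.15 with every tested probe set and to -0.094 with arrays A and B alone, and that of the skeletal target list went from -0.85 to -0.43 with every tested probe set. The cause of these shifts was not tested.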

Other observations

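Probe sets of relatives outside the 8 genes gave these values. Msx3, another Msx gene, read 9.1 and 17.7 in wild type against 32.8 and 27.9 in null pools, and it was over the filter on the null arrays only. This was a log2 difference of 0.90 (SE 0.34, limma adjusted p = 0.187 with the block and 0.823 without). The genotypes did not overlap, and the differences within scan batches were 1.31 and 0.50. The noncoding gene Dlx6os2 (chromosome 6, 6863797 to 6865150, GRCm38.p6) lies within the span of Dlx6. Its 2 probe sets on array A did not meet the filter, with null minus wild-type differences of 0.61 and 0.10 against -1.22 for Dlx6. Dlx6os1 had 56.7 and 35.9 in the null pools against 53.9 and 63.8 in wild type on array C as labelled (log2 difference -0.31, limma adjusted p = 0.773 with the block). A second Dlx6os1 probe set there, below the filter on every array, had 1.4 and 1.3 in the null pools against 19.5 and 3.4 in wild type, without overlap (log2 difference -0.81). The control levels on array C, whose order departs from that on arrays A and B, apply to both.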
